A study of Mus musculus with 8 samples.

Results

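The 38 Hox genes analysed here are homeobox transcription factor genes that lie in 4 clusters, Hoxa on chromosome 6, Hoxb on chromosome 11, Hoxc on chromosome 15 and Hoxd on chromosome 2. They were found on the array by the RefSeq accession of each probe, which gave 41 probes among 37277 genes in all, and no expression value entered that choice. Motor neuron cultures were derived from male mouse embryonic stem cells with retinoic acid and a Sonic hedgehog signal, and grew with GDNF after the embryoid bodies were dissociated, per the labels. Control cultures and cultures in which Litchi was knocked out were each sampled at day 7 and at day 9, which makes 4 groups of 2 arrays. The line of both genotypes carries a motor neuron GFP reporter, no sort on it is given in the labels, and the labels do not say how many clones a genotype stands for or whether replicates were separate cultures. P-values therefore rest on the spread between such samples, and that spread may be technical.

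Within a cluster the genes are numbered by position, and those of the same number in different clusters are paralogs. In the embryo they switch on in that order along the body axis, low numbers reaching into the hindbrain and high numbers confined to the lumbar and tail levels. In spinal motor neurons the combination of Hox proteins, which bind DNA with Pbx and Meis partners, sets the column and muscle pool a cell joins. Retinoic acid, Fgf and Cdx signals open the clusters, and Polycomb proteins keep the genes that are not in use silent.

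The promoters of 3 genes are shown, of the Hoxd neighbours Hoxd3 and Hoxd4, which were both lower in knockout cells, and of Hoxa9, the member with the steepest fall with time in those cells. Each is the stretch of 250 bases before the RefSeq gene start on GRCm38.p6, written in the direction of transcription. Hoxd3 is at chr2:74711743-74711992 on the plus strand, Hoxd4 at chr2:74721728-74721977 on the plus strand and Hoxa9 at chr6:52227371-52227620 on the minus strand. Capitals mark a half-site of the retinoic acid receptor (AGGTCA), a Cdx site (TTTATG) and a TATA box (TATAAA), on either strand.
Hoxd3: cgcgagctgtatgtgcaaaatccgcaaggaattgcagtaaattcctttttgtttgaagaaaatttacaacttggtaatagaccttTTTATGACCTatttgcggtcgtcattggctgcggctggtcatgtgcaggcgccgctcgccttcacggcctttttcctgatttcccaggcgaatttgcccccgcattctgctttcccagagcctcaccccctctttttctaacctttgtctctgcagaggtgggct
Hoxd4: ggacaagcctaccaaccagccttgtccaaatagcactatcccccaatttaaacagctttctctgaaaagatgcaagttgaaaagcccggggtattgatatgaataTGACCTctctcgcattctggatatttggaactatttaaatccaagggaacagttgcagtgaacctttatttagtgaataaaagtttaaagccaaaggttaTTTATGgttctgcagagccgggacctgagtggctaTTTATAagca
Hoxa9: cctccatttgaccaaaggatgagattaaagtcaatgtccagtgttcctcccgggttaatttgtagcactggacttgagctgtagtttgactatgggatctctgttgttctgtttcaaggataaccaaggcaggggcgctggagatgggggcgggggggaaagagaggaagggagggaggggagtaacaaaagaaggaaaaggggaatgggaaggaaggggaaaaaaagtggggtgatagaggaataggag
In Hoxd3 the 10 capital letters hold a Cdx site that overlaps the reverse complement of the half-site. Hoxd4 holds the half-site and the TATA box as reverse complements and a Cdx site as spelled. None of these letters was found in the window of Hoxa9. RefSeq promoters were matched for 22 of the 38 genes, 24 windows in all. The half-site lay in 6 of these 24 and in 14.02% of all 32851 promoters of that length, the Cdx site in 5 and in 10.76%, and the TATA box in 4 and in 12.37%. A direct repeat of the half-site with a gap of 5 bases was in 0 of the 24 and in 0.009132% of all, and the paired Hox and Pbx site TGATNNAT was in 4 and in 7.683%. The median CpG count was 12.5 over the 24 windows and 6 over all promoters. A match of letters is a description of the window.

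Every value is the log2 of the processed signal minus the log2 of the array's 75th percentile. Across arrays it lay between 649 and 1691 intensity units, higher on the replicate 1 arrays, and 55.9% to 67.9% of an array's spots were called well above background, so the number of arrays and the dim end of the scale limit the precision. A change is a difference of group means of these values on the log2 scale, given ± the standard error (SE) of the limma fit, with n = 2 arrays a group. All 8 arrays were on 1 slide. The level of Litchi, the targeted gene, was not analysed here, so the genotype labels have no check in these values.

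The Hox genes above background on all arrays formed a broad anterior to mid-trunk set. Of the 38 genes, 22 were well above background on all 8 arrays, 9 on some and 7 on none. The 22 were all among paralogs 1 to 9, where they made up 22 of 26 genes. Among paralogs 10 to 13, which mark the lumbar and more caudal cord, 0 of 12 were above background on all arrays, 6 on some and 6 on none. Hoxb13, 1 of those 6 seen on some, was above background on 7 of the 8 arrays. Hoxb was the most fully detected cluster, with 8 of 10 genes on all arrays, against 6 of 10 in Hoxa, 4 of 9 in Hoxc and 4 of 9 in Hoxd.

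The 7 genes not well above background on any array were Hoxa10, Hoxa11, Hoxc8, Hoxc10, Hoxc12, Hoxd10 and Hoxd12. Hoxc8 stood between genes that were above background on all arrays, Hoxc6 and Hoxc9. Hoxc10 and Hoxd10 are the paralogs known from lumbar motor neurons. Probes at background give only a bound, so absence of these RNAs is not shown.

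The 9 genes seen on some arrays were seen mostly on the brighter arrays. Together they had 24 calls of well above background on the replicate 1 arrays and 6 on the replicate 2 arrays, and 8 of the 9 had more on replicate 1. Hoxb1, Hoxc13 and Hoxc11 were above background on 3, 3 and 2 arrays, all of replicate 1 and with neither knockout day 9 array among them. Hoxb1, the hindbrain gene at the front of its cluster, was at -5.04 and -5.55 in control and -5.23 and -5.23 in knockout cultures on day 7, and at -5.49 and -6.25 and at -6.79 and -6.19 on day 9. Hoxc13, at the tail end of its cluster, was at -5.46 and -5.91 and at -5.39 and -6.11 on day 7, and at -5.30 and -6.08 and at -6.60 and -7.02 on day 9. Hoxc11 was at -5.44 and -5.62 in control cultures on day 7 and at -5.15 and -7.17 on day 9, and on the knockout arrays it was at -6.56 and -7.23 on day 7 and at -8.40 and -7.45 on day 9. All replicate 2 arrays of these 3 genes also give only a bound, and Hoxc11 has only bounds in knockout cultures. Hoxd13 was above it on the 4 replicate 1 arrays, at values between -5.79 and -4.90. Hoxa13 passed on 1 array, knockout day 7 replicate 1, at -4.04, and Hoxd11 on 1 array, control day 9 replicate 2, at -3.90. Those single arrays stood alone, each with a replicate at or below -7.09, and no group of these 6 genes had both arrays above background, so they were not tested.

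**Figure D1:**
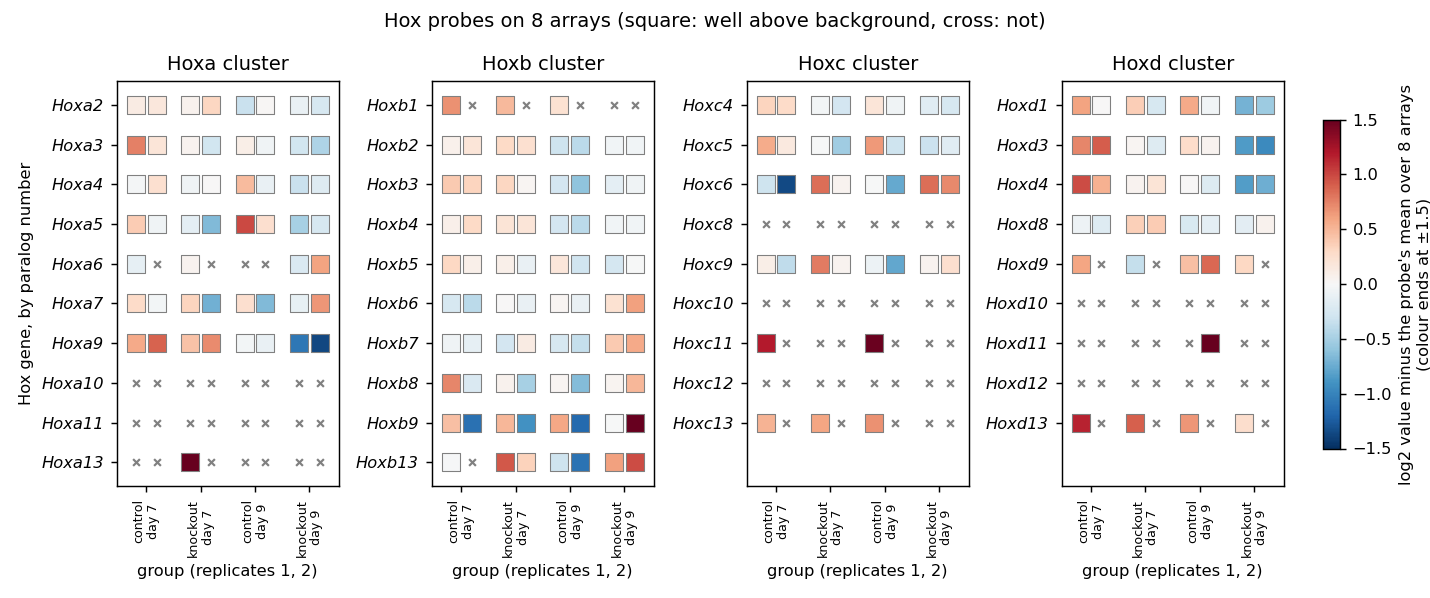
Each row is the probe of a Hox gene and each column an array, grouped by genotype and day with replicate 1 left of replicate 2. Squares are well above background and coloured by the log2 value minus that probe's mean over the 8 arrays, and crosses are not well above background. Rows 10 to 13 of Hoxa, Hoxc and Hoxd are mostly crosses, Hoxb13 has 1 cross, and Hoxd3, Hoxd4 and Hoxa9 are bluest in the knockout day 9 arrays.

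With the filter of both arrays of at least 1 group above background, 25 of the 38 genes entered the test among 24623 genes. Hoxa6 passed through the knockout day 9 arrays alone and Hoxd9 through the control day 9 arrays alone, so a difference was built into their choice. Hoxa6 was at -5.77 and -6.13 in control cells and at -5.59 and -5.51 in knockout cells on day 7, and, on day 9, at -5.77 and -5.46 in control and -5.87 and -5.03 in knockout cultures, where it was not well above background on either control array. Hoxd9 was at -5.21 and -6.30 in control and -6.16 and -7.32 in knockout cells on day 7, and at -5.36 and -4.94 in control and -5.50 and -5.65 in knockout cells on day 9. Neither passed any test.

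The first comparison set knockout against control at the earlier sampling, day 7. None of the 25 tested Hox genes passed limma's test at a Benjamini-Hochberg adjusted p under 0.05, while 7 had an unadjusted p under 0.05, 3 higher and 4 lower, next to 18.9% of all genes at that limit. Over all 24623 genes 0.215% were called in limma. Hoxd3, a gene of the cervical and hindbrain level, came nearest with a change of -0.90 (adjusted p = 0.0817). It was at 2.01 and 2.19 on the control arrays and at 1.31 and 1.09 on the knockout arrays, and the groups did not overlap. The groups did not overlap in 13 of the 25 Hox genes, 6 higher and 7 lower, a share close to the 48.3% of all genes (20.5% higher and 27.8% lower). Hoxa6, kept through the knockout day 9 arrays alone, is among the 6 higher.

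On day 9 Hoxd3 and Hoxa9 were lower in knockout cells and no Hox gene was called higher in the main fit. Some alternatives called Hoxb7 higher. A block for replicate number added Hoxc6, and that block with crossed knockout day 9 numbers added Hoxb9 and Hoxb13. The 2 of 25 called in the main fit stand beside 5.47% called over all genes, 3.96% being called lower and 1.51% higher. Hoxd3 was at 1.56 and 1.33 on the control arrays and at 0.43 and 0.33 on the knockout arrays. Both knockout arrays were below both control arrays, a change of -1.06 ± 0.15 or 2.09-fold lower (limma, adjusted p = 0.0233). Hoxa9, a thoracic-level gene, was at -1.77 and -1.84 on the control arrays and at -2.81 and -3.09 on the knockout arrays. Replicates lay close together and the groups apart, a change of -1.15 ± 0.18 or 2.22-fold lower (adjusted p = 0.0279). The second probe of Hoxa9 was above background on 1 array only and does not bear on this.

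Both calls were lost when certain single arrays were left out. Without control day 9 replicate 1, Hoxd3 was at -0.95 (limma, adjusted p = 0.113), without knockout day 9 replicate 1 at -1.11 (0.0869) and without knockout day 9 replicate 2 at -1.01 (0.145). Hoxa9 was at -1.11 (0.125), -1.19 (0.0706), -1.29 (0.0793) and -1.01 (0.160) without control replicates 1 and 2 and knockout replicates 1 and 2 of day 9. The direction held in each case. Under normexp background correction neither gene was called, at -0.95 (0.0671) for Hoxd3 and -0.89 (0.0629) for Hoxa9.

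Hoxb7, a mid-trunk gene, came nearest among the higher ones on day 9. It was at 2.46 and 2.35 in control cells and at 3.10 and 3.27 in knockout cells, 0.78 ± 0.17 above (limma, adjusted p = 0.0522), which does not pass. Hoxb7 was called higher on day 9 under median centring (0.995, 0.0303) and with only genes above background on all 8 arrays (0.78, 0.0369). The fits with a replicate block, as numbered and with crossed knockout day 9 numbers, also called it. Across the 25 genes, 9 lay wholly above and 9 wholly below control on day 9, next to 59.7% of all genes that lay apart, 27.1% above and 32.5% below. Hoxd9, kept through the control day 9 arrays alone, is among the 9 below, where a difference was built into its choice.

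**Figure D2:**
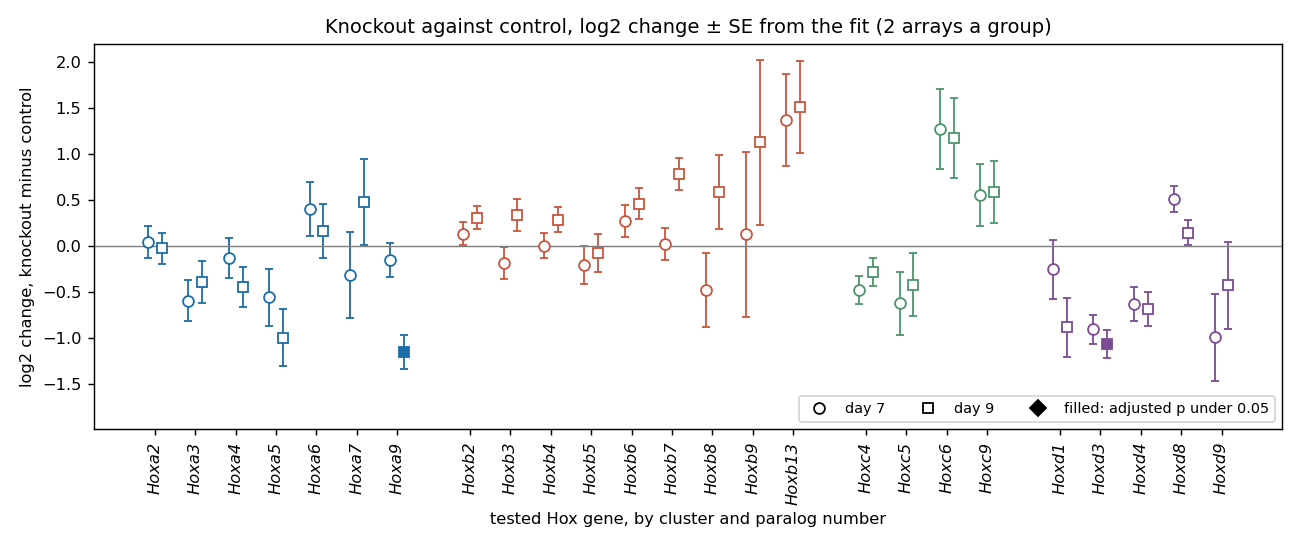
The vertical axis is the log2 change of knockout against control cells ± SE for each of the 25 tested Hox genes, as circles on day 7 and squares on day 9, coloured by cluster. Filled symbols mark an adjusted p under 0.05, which only Hoxa9 and Hoxd3 on day 9 have.

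Both days were then averaged, which sets 4 control arrays against 4 knockout arrays. In the mean of the knockout effects 5 of 25 Hox genes were called, Hoxd3, Hoxd4 and Hoxa9 lower and Hoxc6 and Hoxb13 higher, next to 14.8% of all genes (5.49% higher and 9.34% lower). With each array centred on its median instead, 8 Hox genes were called, 6 higher and 2 lower, so the balance of rises and falls depends on the scaling: Hoxb2, Hoxb6, Hoxb7 and Hoxd8 joined the higher ones and Hoxd4 was no longer called. That centring moved the median change of all genes from -0.04 to 0.13 in this comparison and from -0.02 to 0.19 on day 9, so the changes given are against the 75th percentile of each array. The direction of each of the 5 was the same under each scaling and background alternative that was run. Hoxd8 was also called higher in this mean under quantile normalization and in the deposited values.

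Hoxd3 was the most firmly placed of the 5, at -0.98 ± 0.11 (limma, adjusted p = 0.00779), with each knockout array below each control array of the same day and all 4 knockout arrays below all 4 control arrays. Its call was kept in all 17 alternatives run, with changes from -1.04 to -0.81. Groups of 4 arrays lay apart in 4 of the 25 genes, Hoxd3 and Hoxa5 lower and Hoxb13 and Hoxc6 higher, against 14% of all genes (5.38% higher and 8.61% lower).

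Hoxd4, the neighbour of Hoxd3 and a gene with an early border in the caudal hindbrain, was at 2.63 and 2.18 in control cells and at 1.70 and 1.84 in knockout cells on day 7. On day 9 it was at 1.65 and 1.44 in control cells and at 0.80 and 0.92 in knockout cells. The groups lay apart on each day, with mean changes of -0.63 on day 7 and -0.68 on day 9, but both control arrays of day 9 were below both knockout arrays of day 7. The mean of both effects was -0.66 ± 0.13 (limma, adjusted p = 0.0263). It was called in 2 of the 8 fits that left out an array, those without control day 7 replicate 2 and without control day 9 replicate 2, and in the other 6 the adjusted p ran from 0.0537 to 0.0827.

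Hoxa9 fell in the mean of both effects by 0.65 on the log2 scale (SE 0.13, limma, adjusted p = 0.0258), and its groups overlapped across days. On day 7 it was at -1.16 and -0.85 in control cells and at -1.29 and -1.02 in knockout cells, which overlap, with a change of -0.15. The difference between its day 9 and day 7 effects was -0.997, with an unadjusted p = 0.00704 and an adjusted p = 0.743 in the limma fit over all genes, so the effects are not shown to differ between days. Leaving out control day 7 replicate 1 kept the call of the mean, and each of the other 7 arrays left out gave an adjusted p from 0.0514 to 0.089.

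Hoxc6, a gene of brachial motor columns, was at -0.67 and -1.71 in control cells and at 0.47 and -0.31 in knockout cells on day 7. On day 9 it was at -0.37 and -1.13 in control cells and at 0.48 and 0.35 in knockout cells. All 4 knockout arrays were above all 4 control arrays, although the control replicates were themselves far apart on day 7. The mean of both effects was 1.22 ± 0.31 (limma, adjusted p = 0.0459). It was called without control day 7 replicate 1 only, and without each of the other 7 arrays the adjusted p ran from 0.0608 to 0.122. Hoxc9, the thoracic gene on the far side of Hoxc8, was 0.57 higher in that mean without passing (adjusted p = 0.148), while the rostral genes Hoxc4 (-0.38, 0.0599) and Hoxc5 (-0.52, 0.187) were on the other side of 0. Hoxc4, which lies at the cervical end, was at 5.06 and 5.01 in control and 4.68 and 4.45 in knockout cultures on day 7, and at 4.91 and 4.66 and at 4.53 and 4.47 on day 9. Hoxc5 was at 2.82 and 2.41 and at 2.26 and 1.73 on day 7, and at 2.91 and 1.96 and at 1.95 and 2.09 on day 9, where the groups overlapped. Along the cluster, then, the front pair lay below control and the pair behind Hoxc5 above it. In the main fit Hoxc6 alone was past the threshold. Hoxc4 was called lower in the mean with only genes above background on all 8 arrays and in both replicate block fits.

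Hoxb13, the last gene of its cluster and a tail-level gene, was near the bottom of the scale. It was at -3.64 and -5.05 in control cells and at -2.68 and -3.27 in knockout cells on day 7, and control day 7 replicate 2 was not well above background. On day 9 it was at -3.93 and -4.72 in control cells and at -3.003 and -2.64 in knockout cells. All 4 knockout arrays were above all 4 control arrays, with a mean effect of 1.44 ± 0.35 (limma, adjusted p = 0.0436). Normexp background correction gave a smaller mean effect of 0.64, which was still called. Without control day 7 replicate 2 the mean effect was 1.09 (0.0664), and it was called only without control day 7 replicate 1.

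**Figure D3:**
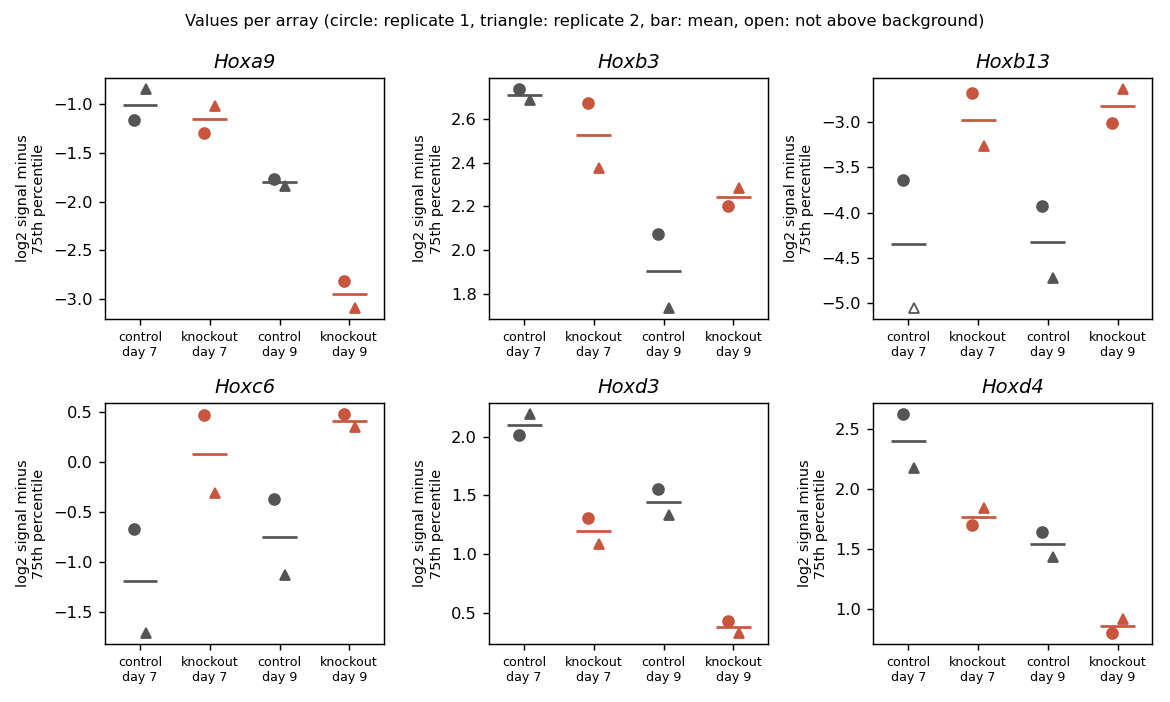
Each panel plots the log2 value per array of a Hox gene called in any comparison, for control (grey) and knockout (red) cells on each day, with the group mean as a bar. The knockout day 9 arrays are lowest for Hoxd3, Hoxd4 and Hoxa9, and the knockout arrays are above the control arrays for Hoxb13 and Hoxc6.

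The RNA levels of cell type markers differed with genotype. The summed level of 9 motor neuron markers, in multiples of the array's 75th percentile, was 119 to 135 in control and 94.8 to 95.4 in knockout cells on day 7, and 61.0 to 83.4 and 37.4 to 42.3 on day 9. All 9, among them Chat, Isl1 and Lhx3, were above background on all arrays, and in the mean of the knockout effects 6 were called lower and 1, Lhx3, higher. The sum of 10 fibroblast and mesoderm markers went the other way, at 26.0 to 37.8 against 53.2 to 72.4 on day 7 and 70.0 to 79.5 against 124 to 143 on day 9, with 7 called higher. Mesoderm of the trunk also expresses Hox genes. Of the other lists, 5 of 6 residual pluripotent, 5 of 5 tested trophoblast and 2 of 5 tested forebrain and midbrain markers were called lower. Called higher were 2 of 6 progenitor and 2 of 5 neural crest markers. The called counts of all these lists stand beside 5.49% of all genes called higher and 9.34% called lower in that mean. In whole cultures fewer cells of a type and less RNA per cell cannot be told apart, and the part of composition in the Hox changes was not tested.

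The clusters are described by the median of their members, with no test between clusters. The median change of the 5 tested Hoxd genes was -0.63 on day 7 and -0.68 on day 9, that of 7 Hoxa genes -0.15 and -0.39, that of 4 Hoxc genes 0.04 and 0.15, and that of 9 Hoxb genes 0.02 and 0.46. Over all genes the medians were -0.05 and -0.02. Without Hoxa6 and Hoxd9, which each passed the filter through 1 group, the medians were -0.23 and -0.41 for Hoxa and -0.44 and -0.78 for Hoxd. Leaving out 1 array moved the day 7 and day 9 medians from -0.26 to -0.0012 and from -0.47 to -0.20 for Hoxa, and from -0.01 to 0.05 and from 0.25 to 0.66 for Hoxb. For Hoxc the ranges were -0.20 to 0.28 and -0.09 to 0.49, which cross 0, and for Hoxd they were -0.82 to -0.41 and -0.79 to -0.58. Besides Hoxd9, 3 of 4 Hoxd genes were below 0 on both days. Hoxd8 was the exception, at -2.33 and -2.45 in control and -1.89 and -1.87 in knockout cells on day 7 (0.51, adjusted p = 0.144), and 0.15 on day 9. Hoxd1 was lower by 0.25 on day 7 and by 0.88 on day 9 (adjusted p = 0.720 and 0.151). It was at -3.62 and -4.24 in control and at -4.89 and -4.73 in knockout cultures on day 9, and the groups lay apart there but overlapped on day 7.

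In Hoxa, Hoxa5 had the largest change in the mean of both days, ahead of Hoxa9, and Hoxa2 the smallest. Hoxa5, a cervical to brachial gene that also acts in lung and skeleton, was at 2.52 and 2.08 in control and 2.00 and 1.49 in knockout cells on day 7, and at 3.14 and 2.39 and at 1.65 and 1.89 on day 9. It lay lower on each knockout array than on each control array. In the mean of both days it was at -0.78 (limma, adjusted p = 0.0601), which did not pass in the main fit. Hoxa5 was called lower in that mean with only genes above background on all 8 arrays and in both replicate block fits. Hoxa3 was -0.49 (0.0875) in that mean. Hoxa2, a hindbrain gene, was 0.01 with a 95% interval from -0.28 to 0.30. Hoxa7 changed sign between days, -0.31 and 0.48, and its replicates were far apart in knockout cells.

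In Hoxb, 8 of 9 tested genes were above 0 on day 9, next to 76.0% of the other tested genes on chromosome 11. Of the 9, 7 lay wholly above control, next to 27.1% of all genes. Hoxb3 counts here through its brighter probe (0.34), and its second probe was at -0.19. The share lying wholly above control was not counted for chromosome 11 alone. On day 9, 9.27% of its other tested genes were called higher, against 1.51% of all genes. Hoxb4 was at 4.58 and 4.45 in control and 4.80 and 4.80 in knockout cells on day 9, and Hoxb6 at 3.93 and 3.80 and at 4.13 and 4.52. Hoxb2, Hoxb3, Hoxb4 and Hoxb6 were between 0.29 and 0.46 higher on day 9 and none passed. Hoxb5 was the member on the other side, at 5.10 and 4.63 in control and 4.66 and 4.92 in knockout cultures, which overlap (-0.08). Hoxb8, a mid-trunk gene, was at 2.93 and 2.25 and at 2.95 and 3.40, so the groups lay apart by little and the change of 0.58 did not pass (adjusted p = 0.405). Hoxb9 had the widest spread of the cluster, at -1.57 and -3.31 in control and at -2.16 and -0.48 in knockout cells on day 9, so that its change of 1.12 is within the gap between replicates.

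Hoxb lies on chromosome 11, whose other genes were also higher in knockout cells. The 1241 other tested genes of that chromosome had a median change of 0.29 on day 7, 0.38 on day 9 and 0.34 in the mean of both, where 77.6% were above 0 and 375 (30.2%) were called higher. For the chromosomes of Hoxa, Hoxc and Hoxd the medians of the mean effect were -0.01, -0.0045 and 0.02, with 5.69%, 5.71% and 5.09% called higher. The 40 tested genes nearest to Hoxb, 20 on each side, had a median of 0.34 with 13 called higher and 1 lower. Those near Hoxa and Hoxd, also 40 each, had medians of 0.05 and 0.13, and the 31 near Hoxc 0.05.

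Set against that median, the Hoxb genes were not higher as a group. On day 9, 5 of 9 lay above the chromosome's median and 5 of 9 within its middle 50% of genes, and in the mean of both days 4 of 9 lay above it and 6 of 9 within. With each array's chromosome 11 median subtracted, Hoxb13 was at 1.10 (limma, adjusted p = 0.0895) and no longer called, and Hoxb5 was the next furthest, at -0.49 (0.0755). On day 7, 1 of 9 lay above the chromosome's median and 3 of 9 within its middle 50%, so that most Hoxb genes were then below their chromosome. In the mean of both days Hoxd1, Hoxd3 and Hoxd4 lay below the middle 50% of chromosome 2 and Hoxd8 above it, and Hoxd9, kept through the control day 9 arrays alone, is left out of that reading. What moved chromosome 11 was not tested.

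**Figure D4:**
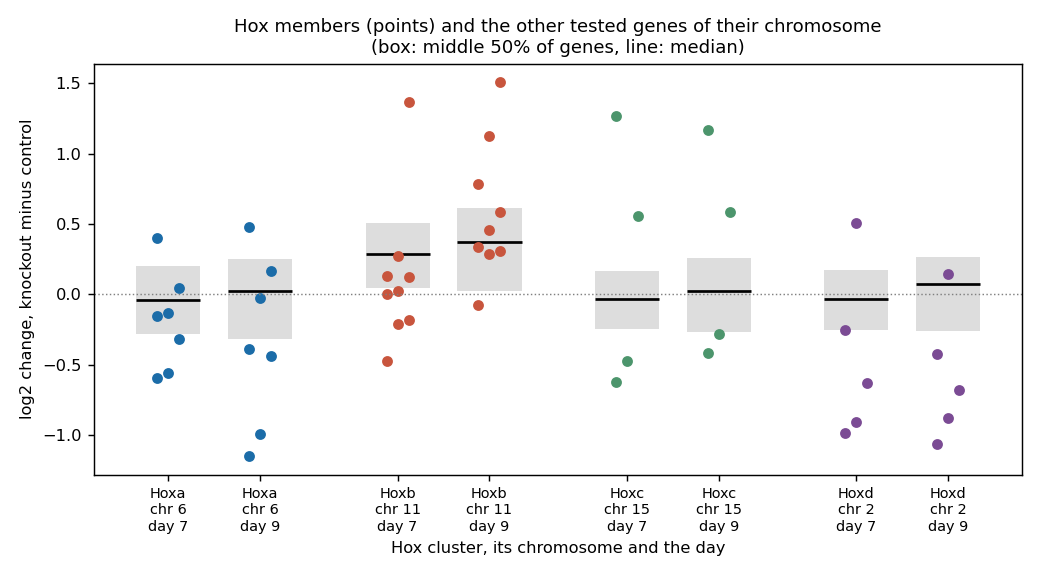
Points are the tested Hox genes of a cluster, boxes the middle 50% and lines the median of the other tested genes on the same chromosome, with the log2 change of knockout against control cells on the vertical axis for each day. The Hoxb points scatter around a raised box, while most Hoxd points are below theirs.

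Between day 7 and day 9, Hoxb3 and Hoxd4 fell in control cells, and Hoxa9, Hoxd3 and Hoxd4 fell in knockout cells. No Hox gene was called higher in either genotype in the main fit, though under median centring Hoxb7 was called higher in knockout cells (0.71, limma, adjusted p = 0.0493). The replicate block with crossed knockout day 9 numbers called Hoxb9 higher in those cells. The 2 of 25 in control cells stand beside 7.38% called over all genes (4.11% higher and 3.27% lower), and the 3 of 25 in knockout cells beside 8.31% (4.15% higher and 4.16% lower). The days lay apart in 11 of 25 Hox genes in control cells, 1 higher and 10 lower, next to 54.8% of all genes (18.9% higher and 35.9% lower). In knockout cells they lay apart in 14, 3 higher and 11 lower, next to 58% (22.1% higher and 35.9% lower). Hoxd9, above background on 1 of the 2 knockout arrays of each day, is among the 3 higher. The comparisons share no arrays with each other, but each shares its arrays with the knockout comparisons above.

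Hoxd4 changed by -0.86 ± 0.19 in control cells (limma, adjusted p = 0.0454) and by -0.91 ± 0.19 in knockout cells (0.0351). Hoxd3 changed by -0.66 in control cells (0.0549) and by -0.82 ± 0.15 in knockout cells (0.0287). The differences between genotypes were -0.05 for Hoxd4 (limma, adjusted p = 0.990) and -0.16 for Hoxd3 (0.938), so a differing time course is not shown for either. Hoxa9 changed by -0.80 in control cells (limma, adjusted p = 0.0510), just short of the threshold. It was called lower in control cells under quantile normalization, in the deposited values and with only genes above background on all 8 arrays. The mean of kept probes and the replicate block with crossed knockout day 9 numbers also called it there. In knockout cells Hoxa9 changed by -1.80 ± 0.18 (0.00629), a call kept in all 17 alternatives.

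Hoxb3, a gene of the hindbrain and cervical cord, was at 2.73 and 2.68 in control cells on day 7 and at 2.07 and 1.74 on day 9, a change of -0.80 ± 0.17 (limma, adjusted p = 0.0440). Its second probe, also above background on all 8 arrays, changed by -0.05 in the same comparison, so the probes disagree, and with both averaged the change was -0.43 (0.141). In knockout cells the brighter probe was at 2.67 and 2.38 on day 7 and at 2.20 and 2.28 on day 9, a change of -0.28 (0.351). Neither control call, Hoxb3 or Hoxd4, was kept in any of the 8 fits without an array, with adjusted p from 0.0518 to 0.206 for Hoxb3 and from 0.0737 to 0.213 for Hoxd4. In knockout cells the calls of Hoxd3 and Hoxd4 were lost without each of the 4 knockout arrays, at adjusted p from 0.0885 to 0.138 and from 0.0881 to 0.171.

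The group medians with time were -0.30 for Hoxa, -0.26 for Hoxb, -0.21 for Hoxc and -0.06 for Hoxd in control cultures. In knockout cultures they were -0.24, 0.15, -0.02 and -0.68 in the same order, where all genes had -0.12 in each genotype. Without Hoxd9 the Hoxd median in control cultures was -0.36. Leaving out 1 array gave -0.30 to 0.12 for Hoxa, -0.54 to -0.15 for Hoxb, -0.51 to 0.18 for Hoxc and -0.36 to 0.0067 for Hoxd in control cultures. In knockout cultures it gave -0.31 to -0.09, -0.14 to 0.36, -0.21 to 0.19 and -0.84 to -0.43, so several of these signs rest on single arrays. The Hoxd medians hide unequal members: in control cells Hoxd3 and Hoxd4 were low while Hoxd1 and Hoxd8 were at -0.05 and -0.06. For the difference of the knockout effects between days no Hox gene was called by limma and 2 had an unadjusted p under 0.05, Hoxa9 at -0.997 and Hoxb7 at 0.76, next to 6.01% of all genes at that limit. By the adjusted p 0.00406% of all genes were called. Hoxb7 was at 2.64 and 2.58 in control and at 2.43 and 2.83 in knockout cells on day 7, where the groups overlapped. All 9 tested Hoxb genes had a positive difference, from 0.13 to 1.06, with none past the threshold. Of the other tested genes on chromosome 11, 57.6% had a positive difference, and all these genes share the same arrays. The sign for Hoxb3 depends on the probe, at 0.52 for the one used and -0.15 for the other.

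**Figure D5:**
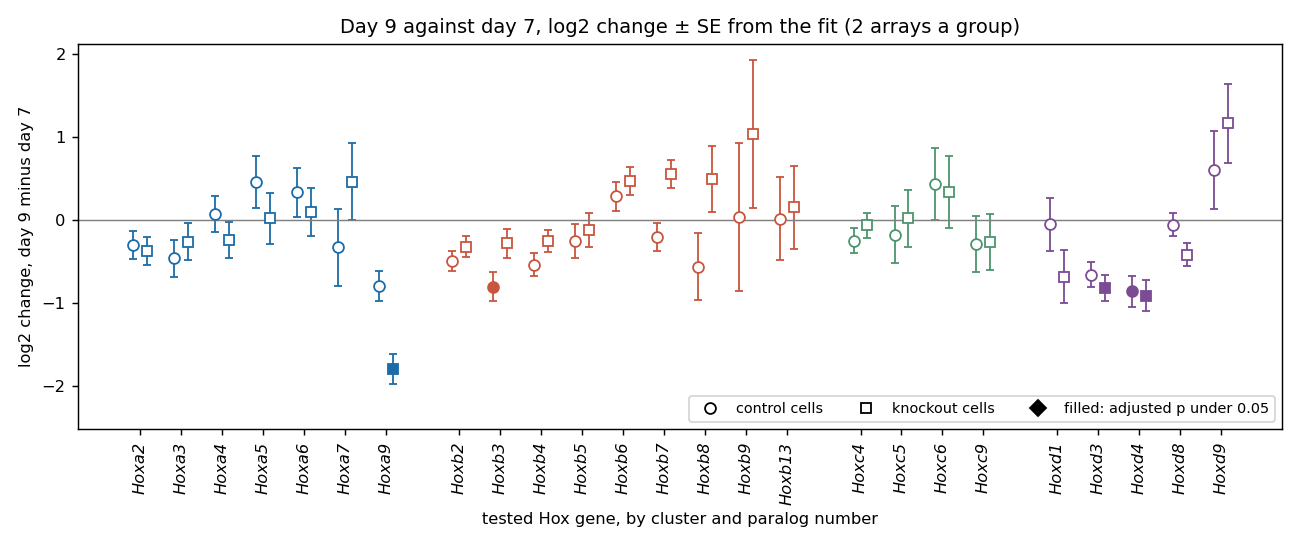
The vertical axis is the log2 change from day 7 to day 9 ± SE for each tested Hox gene, as circles in control cells and squares in knockout cells, filled where the adjusted p is under 0.05. Hoxa9 in knockout cells is lowest at -1.80, and Hoxd3 and Hoxd4 lie between -0.66 and -0.91 in both genotypes.

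Genes that work upstream of or with the Hox genes were read in the same fit, in the mean of the knockout effects. Of 18 tested genes of the retinoic acid pathway 7 were called higher and none lower, with a median change of 0.38, where 5.49% of all genes were called higher and 9.34% lower. Among them were the retinoic acid synthesis enzymes Aldh1a1, Aldh1a2 (1.07 ± 0.10, limma, adjusted p = 0.00620) and Aldh1a3 (1.23 ± 0.20, 0.0177), the retinol uptake receptor Stra6 (1.09 ± 0.12, 0.00775), the retinal reductase Dhrs3 (0.94 ± 0.20, 0.0313) and the receptor Rara, which lies on chromosome 11. Between 5 and 9 of the 18 were called, all higher, under the other scalings and background correction.

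Of the 7 tested upstream and hindbrain regulators of 12, 3 were called lower, again next to 9.34% of all genes. These were the caudal factor Cdx1 (-1.59 ± 0.41, limma, adjusted p = 0.0485), the hindbrain border gene Gbx2 (-0.45 ± 0.10, 0.0343) and the forebrain and midbrain gene Otx2 (-0.96 ± 0.19, 0.0252). Cdx1 was above background on 7 arrays and Otx2 on 6. Under normexp none of the 3 was called, and 1 was under each of the other scalings. Cdx2 and Cdx4 were not among the tested genes.

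None of the 9 Hox cofactor genes was called for the knockout, with 1 at an unadjusted p under 0.05 in limma. Pbx3 came nearest, at -0.31 ± 0.10 (adjusted p = 0.0948), and Meis1 was at 0.11 (0.421). Of 24 tested Polycomb and Trithorax genes 1, the Polycomb subunit Suz12 on chromosome 11, was called higher (0.42 ± 0.10, limma, adjusted p = 0.0360), while under median centring 7 were. Of 2 tested noncoding RNAs of the clusters, Hoxd3os1, which lies opposite Hoxd3, was higher at 0.44 ± 0.11 (limma, adjusted p = 0.0431), against the lower Hoxd3, and was not called under normexp. Hoxa11os was at -0.30 (0.277).

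Of 19 tested genes of motor columns and pools, 2 were called higher, Lhx3 (0.91 ± 0.11, limma, adjusted p = 0.00995), also counted among the motor neuron markers, and Aldh1a2. Called lower were 3, Runx1 (-0.86 ± 0.12, 0.0127), Nkx6-2 (-0.68 ± 0.12, 0.0189) and Cpne4 (-0.77 ± 0.19, 0.0443). The 2 higher stand next to 5.49% of all genes called higher, and the 3 lower next to 9.34% called lower. Lhx3 marks the medial column and Aldh1a2 the limb column. Foxp1, the partner through which Hox proteins set limb and preganglionic columns, was at -0.11 (0.554). Of 14 tested genes that flank the clusters, Skap1 (0.73 ± 0.15, 0.0288) and Cbx1 (0.72 ± 0.10, 0.0139) were called higher in limma, both beside Hoxb on chromosome 11. In this mean 30.2% of the other tested genes of that chromosome were called higher, and 5.49% of all genes. None of the 3 ParaHox genes was above the filter.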

How the data were processed

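RNA of 8 cultures was labelled with Cy3 and hybridised to 1-colour Agilent SurePrint G3 mouse arrays, with scans quantified in Feature Extraction 10.5.1 according to the submitters' processing notes. The deposited intensity values are processed signals, background-subtracted and detrended within the array and not scaled between arrays, per the file headers. A deposited table by the authors holds log2 values with a median of 5.80 in each column, whose offset stays unknown and which served as an alternative.

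Of 62976 spots, 3671 controls and 104 to 166 outliers an array were left out, and spots of a probe were averaged as log2 values minus the array's 75th percentile. A probe was kept if both arrays of some group had it well above background, and the brightest kept probe stood for a gene. RefSeq accessions named 26300 of 55681 probes (47.2%) through a GRCm38.p6 table, and the array's own positions are on another build and are not printed. Limma 3.58.1 in R 4.3.3 fitted 4 group means over 8 arrays (4 residual and 2.53 prior degrees of freedom), two-sided, with Benjamini-Hochberg adjustment over 24623 genes. The fit was tested on simulated data.

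Alternatives were another background correction, scaling, filter and probe rule, a replicate block and leaving out each array. Normexp, planned on mean spot signals, was run on median signals. All Hox genes are named, with array values for those called in any comparison or seen in part of the groups. Of each related list the called genes with the largest changes are named, plus Aldh1a1, Rara, Nkx6-2 and Foxp1, which were picked with their values known. The Hox genes and the lists were chosen with earlier results of these data known.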

Additional observations from a re-analysis of the deposited data

How the results depend on the processing

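No Hox result changed direction where it was called, in the 17 alternatives run. Hox genes called on day 9 were 2, but 0 under normexp, 0 with no filter, and 3 under median centring and with probes above background on all 8 arrays, Hoxb7 being added as higher. In control cells with time they were 2, but 0 under normexp, 0 under median centring, 0 with no filter and 4 with probes above background on all 8 arrays. In knockout cells with time they were 3, but 1 under normexp, 1 with no filter and 2 under median centring (Hoxa9 lower, Hoxb7 higher). For the mean of both effects they were 5, but 3 under normexp, 8 under median centring and 1 with no filter. Under quantile normalization, in the deposited values and with probes above background on all 8 arrays they were 6. Subtracting the chromosome 11 median took the Hoxb genes called in that mean from 1 to 0. Leaving out each array in turn gave 0 to 2 on day 9, 0 to 0 and 1 to 3 with time in control and knockout cells, 1 to 4 for the mean, and 0 for day 7 and the difference between days. Calls over all genes moved more widely: for the mean, 3652 became 1681 under normexp, 220 with no filter and 450 to 2716 without an array; on day 9, 1347 became 322, 1 and 7 to 809; on day 7, 53 became 21, 0 and 0 to 125, and 184 with probes above background on all 8 arrays. With time, 1817 and 2045 in control and knockout cells became 676 and 856 under normexp, 75 and 480 with no filter, and 8 to 1306 and 438 to 1994 without an array. The share of all calls that were higher in the mean was 37.0%, and 71.6% under median centring.

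The replicate numbers are not shown to pair the arrays of all 4 groups. Deviations from the group means were correlated across genes between groups. Control day 7 correlated at 0.46 with knockout day 7 and at 0.25 with control day 9, and those last groups at 0.31 with each other. Knockout day 9 correlated with control day 7, knockout day 7 and control day 9 at 0.04, -0.03 and -0.25. A replicate effect shared by the other groups but not by knockout day 9 was not tested. With the replicate block, Hox genes called were 4 on day 9, 1 with time in control cells and 8 for the mean, and over all genes 102 were called on day 7 and 2030 on day 9. With the numbers of knockout day 9 crossed, a choice made after seeing the data, they were 7, 5 with time in control cells, 5 in knockout cells and 11. Brighter arrays put more of the dim caudal Hox probes above background, so signal over background limits those genes. With 2 arrays a group, a change that did not pass is not shown to be absent.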
